A study of Mus musculus with 95 samples.

Results

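The genes described here are 9 genes that mark blood vessel endothelium or build the blood-brain barrier: Cldn5, Ocln, Cdh5, Pecam1, Abcb1a, Slco1a4, Flt1, Tek and Ly6c1. They were chosen by symbol, and each of the 9 matched 1 Ensembl identifier among the 55471 features of the deposited count table. The data come from nucleus accumbens punches of mice of a mixed B6;FVB stock that carry Tg(Aldh1l1-EGFP/Rpl10a)JD130Htz/J, and every mouse of every group carries this transgene. In it, regulatory sequence of the astrocyte gene Aldh1l1 drives an EGFP-tagged ribosomal protein, Rpl10a. Translating ribosome affinity purification (TRAP) of the tagged ribosomes yielded each IP library, and an aliquot set aside before it yielded the input library, which represents the whole tissue. In all there are 95 libraries from 49 mice: both fractions for 46 of them and the input alone for 3. Dependent mice went through 5 rounds of CIE, chronic intermittent ethanol exposure, in the CIE-2BC protocol, which alternates it with voluntary drinking from a choice of bottles (2BC). The labels name the other groups non-dependent and naive and say no more of them; in this protocol the names usually stand for drinking without CIE and for no ethanol. There were 18 dependent IP libraries (10 female, 8 male) and 18 dependent input libraries of the same mice. Non-dependent mice gave 13 IP libraries (8 female, 5 male) and 15 input libraries (8 female, 7 male). Naive mice gave 15 IP libraries (8 female, 7 male) and 16 input libraries (8 female, 8 male). The age of the mice is not given in the sources used here. The mice fall into 6 batches by the labels, of which C and G hold 1 dependent female each, I has no naive mouse and L has no non-dependent mouse.

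The endothelial cells of brain capillaries are sealed to each other by tight junctions, so that solutes must cross the cells themselves, through transporters that let nutrients in and pump many drugs out. The barrier is held in place by signals from neighbouring cells: pericytes sit on the vessel wall and the endfeet of astrocytes ensheathe it, and both send factors that endothelial receptors read. Among the genes described here, Cldn5 encodes claudin-5, the main claudin of brain endothelial tight junctions, and Ocln encodes occludin, a further tight junction protein that epithelia also express. Cdh5 encodes VE-cadherin of the adherens junctions, and Pecam1 encodes CD31, an adhesion molecule at endothelial contacts that platelets and leukocytes carry too. Abcb1a encodes a P-glycoprotein that pumps drugs back into the blood, and Slco1a4 encodes an organic anion transporter. Flt1 encodes VEGF receptor 1, Tek encodes the angiopoietin receptor Tie2, and Ly6c1 encodes a GPI-anchored surface protein of the Ly6 family found on brain endothelium in mice.

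The genes lie on 8 chromosomes of the GRCm38 build (positions of the whole gene with its exons, introns and UTRs, from GENCODE M21), all annotated as protein coding. The junction genes are Cldn5 at chr16:18776847-18778262 on the plus strand, Ocln at chr13:100496507-100552718 on the minus strand, Cdh5 at chr8:104101625-104144511 on the plus strand and Pecam1 at chr11:106654217-106750628 on the minus strand. The transporter genes are Abcb1a at chr5:8660077-8748575 (plus) and Slco1a4 at chr6:141805440-141856199 (minus). The receptor genes are Flt1 at chr5:147561604-147726011 (minus) and Tek at chr4:94739289-94874976 (plus), and Ly6c1 lies at chr15:75044018-75048830 (minus). Reads of near copies could move between genes. Of the 50-base stretches of the annotated Ly6c1 transcripts, 32.8% also occur in transcripts of Ly6c2, Ly6a or Ly6i, and of those of Abcb1a 17.6% also occur in Abcb1b or Abcb4. For the other 7 genes this share was between 0 and 1.61%. Ly6c2 reached at most 1.24 CPM (counts scaled to a common library total) in an IP library and 1.40 CPM in an input library, Slco1a5 at most 1.12 and 1.43 CPM, and Slco1a1 had no count in any library. Abcb1b, which was present, is described with Abcb1a. Ly6a was present too, at 22.996 ± 10.4 CPM in IP (SD, n = 46) and 67.6 ± 17.2 CPM in input (SD, n = 49), and how many reads it shares with Ly6c1 was not tested. Cdh5 overlaps Gm29682 on the opposite strand, which had 3 counts over all libraries, and Abcb1a overlaps 2 other genes, 1 of them on the opposite strand, with 85 counts; without the strand setting such reads cannot be told apart.

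RefSeq promoters of the same build (GRCm38.p6), from 250 bases before to 50 bases after an annotated start, were at hand for 7 of the 9 genes; Cdh5 and Pecam1 had no entry. The 3 genes shown are those that the comparisons below turn on: Cldn5, the gene called between treatments; Ly6c1, the most abundant and the most depleted in IP; and Flt1, the least depleted. Ly6c1 has a pair of annotated starts whose windows overlap. The windows are chr16:18776597-18776896 on the plus strand for Cldn5, chr5:147725962-147726261 on the minus strand for Flt1, and chr15:75048788-75049087 and chr15:75048614-75048913 on the minus strand for the upstream and the downstream start of Ly6c1. Capitals mark matches, on either strand, to AGGAAG or GGAAGT (core of ETS family sites), ACAATG (SOX family) or GGGCGG (GC box).
Cldn5: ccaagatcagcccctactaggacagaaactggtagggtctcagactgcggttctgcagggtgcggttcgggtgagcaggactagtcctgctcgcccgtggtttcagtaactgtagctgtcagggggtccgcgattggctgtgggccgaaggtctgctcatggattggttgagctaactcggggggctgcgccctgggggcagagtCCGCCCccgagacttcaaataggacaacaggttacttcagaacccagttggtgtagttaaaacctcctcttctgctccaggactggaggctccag
Flt1: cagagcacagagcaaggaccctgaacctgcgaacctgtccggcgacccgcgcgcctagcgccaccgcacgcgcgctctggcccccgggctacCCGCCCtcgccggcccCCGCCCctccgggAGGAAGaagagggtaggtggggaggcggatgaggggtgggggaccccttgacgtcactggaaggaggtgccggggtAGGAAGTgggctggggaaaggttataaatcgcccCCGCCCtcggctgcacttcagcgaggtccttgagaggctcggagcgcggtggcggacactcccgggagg
Ly6c1, upstream start: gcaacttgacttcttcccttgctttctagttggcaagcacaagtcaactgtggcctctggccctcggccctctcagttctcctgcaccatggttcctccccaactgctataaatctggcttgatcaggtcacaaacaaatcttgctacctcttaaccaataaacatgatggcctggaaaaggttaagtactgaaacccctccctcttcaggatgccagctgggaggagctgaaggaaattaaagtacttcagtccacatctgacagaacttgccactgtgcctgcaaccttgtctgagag
Ly6c1, downstream start: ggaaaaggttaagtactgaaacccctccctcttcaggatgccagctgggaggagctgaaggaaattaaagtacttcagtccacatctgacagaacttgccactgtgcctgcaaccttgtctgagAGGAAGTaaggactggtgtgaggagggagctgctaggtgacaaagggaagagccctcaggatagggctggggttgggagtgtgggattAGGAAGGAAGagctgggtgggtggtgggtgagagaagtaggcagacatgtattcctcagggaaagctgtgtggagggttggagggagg
The Cldn5 window held 1 GC box and no match to the other 3 motifs. The Flt1 window held 3 GC boxes and 2 matches to AGGAAG, of which 1 runs on into GGAAGT. The downstream Ly6c1 window held 3 matches to AGGAAG, of which 1 also runs on into GGAAGT, and the upstream window held none of the 4 motifs. Of all 32851 promoters in the table, 35.7% hold GGGCGG, 35.4% AGGAAG, 23.8% GGAAGT and 12.6% ACAATG, so these matches are a description of the windows and not of binding.

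Depth set how well each gene could be measured. Total counts ran from 14314236 to 27146790 in IP and from 12803108 to 23948193 in input. Ly6c1 had a median of 619 counts per IP library and 1640 per input library, Flt1 351 and 561, Cldn5 253.5 and 459, and Slco1a4 155 and 337. The other 5 genes had medians of 27.5 (Cdh5) to 62 (Abcb1a) counts in IP and of 57 (Cdh5, Ocln) to 136 (Abcb1a) in input, and the lowest IP library held 1 count of Ocln, and for Cdh5 likewise 1. The lists of other cell types were present in every treatment as well: summed over their markers, mural cells (14 genes) took 54.3 to 118 CPM of an IP library and 104 to 198 CPM of an input library.

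Per kilobase of annotated exon, Ly6c1 and Cldn5 stood far above the other 7 genes in both fractions. In IP, Ly6c1 averaged 20.2 ± 7.84 CPM per kb and Cldn5 9.27 ± 3.23 (SD, n = 46). In input, Ly6c1 averaged 59.5 ± 16.7 CPM per kb and Cldn5 20.4 ± 7.02 (SD, n = 49). Ly6c1 exceeded Cldn5 in 44 of 46 IP libraries and in 49 of 49 input libraries. A step below came Flt1 (1.35 ± 0.42 CPM per kb in IP, 2.47 ± 0.45 in input) and Slco1a4 (1.27 ± 0.57 in IP, 3.06 ± 0.94 in input). These 2 neighbours overlapped: Flt1 was the higher one in 29 of 46 IP libraries, and Slco1a4 was the higher one in 35 of 49 input libraries. The remaining 5 genes lay between 0.403 (Cdh5) and 0.647 (Abcb1a) CPM per kb in IP and between 0.826 (Cdh5) and 1.47 (Abcb1a) in input. Their order was not stable from library to library. In input Abcb1a was above Tek in 35 of 49 libraries, Tek above Pecam1 in 30, Pecam1 above Ocln in 34 and Ocln above Cdh5 in 26.

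**Figure D1:**
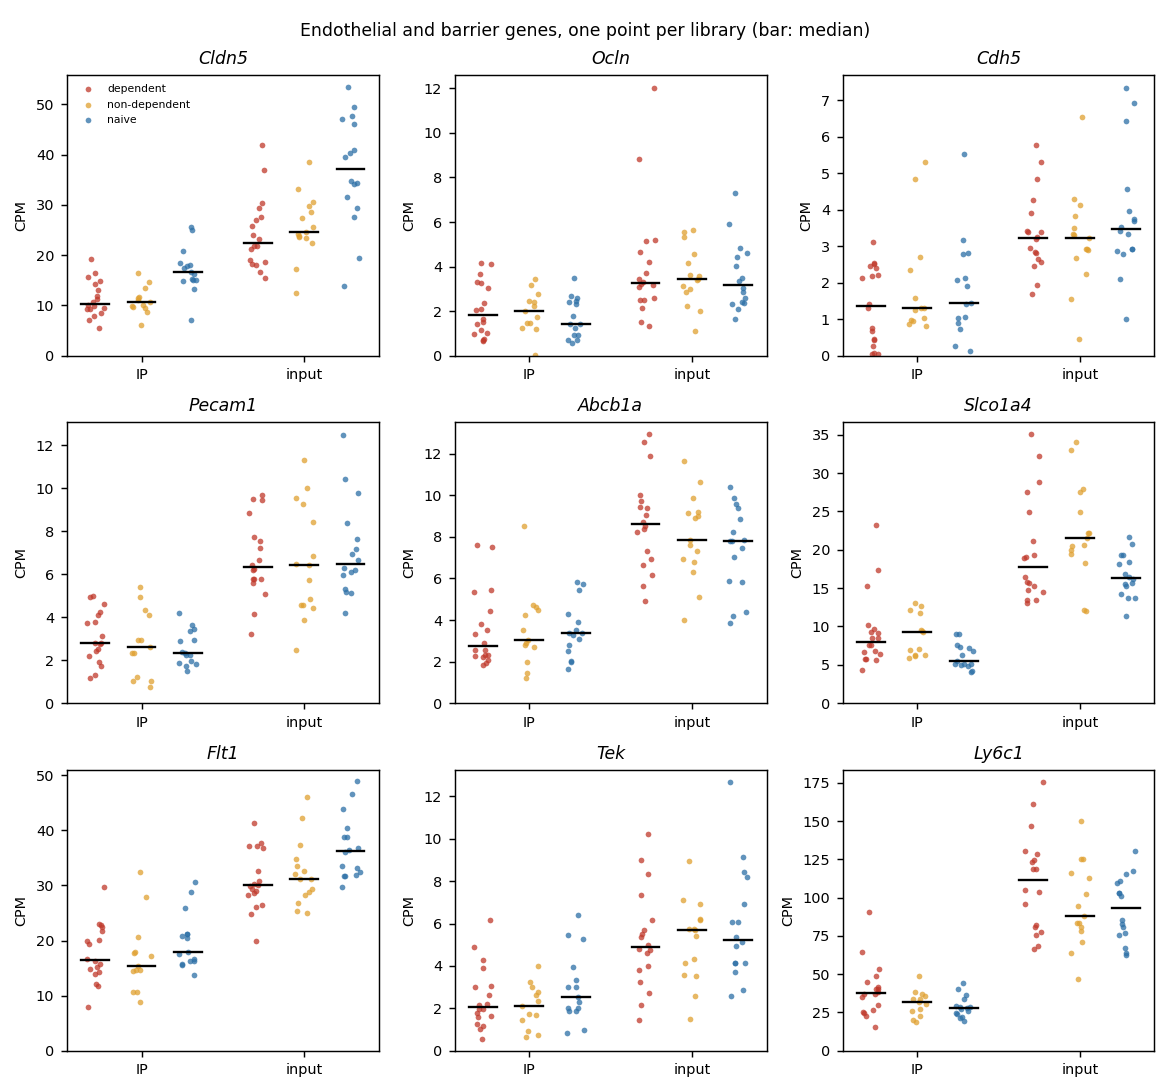
CPM of the 9 genes in each library, with IP on the left and input on the right of each panel and, within each, dependent, non-dependent and naive mice from left to right (bars are medians, axes start at 0). Points sit lower in IP for all 9 genes. The input median of Cldn5 is 22.5 CPM in dependent mice and 37.2 CPM in naive mice. Batches are pooled here: batch L gave 3 dependent and 8 naive input libraries, with high Cldn5 means in both (33.9 and 44.2 CPM). With a batch term in the fit the difference was -0.47 on the log2 scale.

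The first comparison asked how far the purification of astrocyte ribosomes removed vessel transcripts. All 9 genes were lower in IP than in the input of the same mice, by log2 fold changes between -1.45 (Ly6c1) and -0.73 (Flt1). These come from edgeR, which scales libraries by TMM, and stand for folds of 0.366 and 0.601. By CPM, which are scaled by library total only, IP held a median of 32.6% (Ly6c1) to 51.8% (Flt1) of the input level. Fold changes and CPM below differ in scale in the same way. None of the 9 was removed fully. Over all 21743 genes tested, 45.0% were called lower in IP (edgeR quasi-likelihood test with the mouse as a block, adjusted p at or under 0.05 by Benjamini-Hochberg, here and below), and the median log2 fold change of all genes was -0.16. In bulk tissue, fewer endothelial cells and less RNA per cell cannot be told apart, and this holds for every difference in input below.

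Of the junction genes, Cldn5 had 5.49 to 25.5 CPM in IP (median 12.5) and 12.4 to 53.5 CPM in input (median 27.4), and was lower in the IP of 46 of 46 mice. Its log2 fold change was -0.96 ± 0.06 (SE, adjusted p = 2.32e-22). Pecam1 averaged 2.82 ± 1.197 CPM in IP, against 6.70 ± 2.16 CPM in input (SD over 46 mice), and was lower in the IP of 45 mice. Its log2 fold change by edgeR was -1.07 ± 0.10. Cdh5 averaged 1.69 ± 1.29 CPM in IP, against 3.54 ± 1.38 CPM in input (-0.96 ± 0.15, lower in 43 mice). Ocln averaged 1.94 ± 1.02 CPM in IP, against 3.78 ± 1.97 CPM in input (-0.79 ± 0.12, lower in 39 mice), so that for Ocln 7 mice did not follow the group.

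Both transporters fell. Slco1a4 averaged 8.18 ± 3.67 CPM in IP, against 19.5 ± 6.09 CPM in input (-1.10 ± 0.08 on the log2 scale, adjusted p = 1.04e-19), and only dependent mouse J09 had more in IP (23.2 CPM) than in input (14.6 CPM). Abcb1a averaged 3.54 ± 1.66 CPM in IP, against 8.16 ± 2.12 CPM in input (-1.06 ± 0.10, lower in the IP of 44 of 46 mice). Its near copy Abcb1b, the other mouse P-glycoprotein gene, went the opposite way: it was at 0.713 to 5.79 CPM in IP (median 2.43) and at 0.201 to 3.83 CPM in input (median 1.41), a log2 fold change of 0.90 ± 0.11 (adjusted p = 2.93e-11). Reads that fit both genes were present in unknown number, since how the authors' counting treated them is not given in the sources used here.

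Of the receptors, Flt1 kept the most in IP, with 7.96 to 32.4 CPM (median 16.9), against 19.9 to 49.0 CPM in input (median 32.1). Its log2 fold change was -0.73 ± 0.06, and it was lower in the IP of 45 of 46 mice, J09 being the exception. Tek averaged 2.56 ± 1.44 CPM in IP, against 5.32 ± 2.30 CPM in input (-0.87 ± 0.12), and was lower in 39 mice. Ly6c1 lost the most, with 15.7 to 90.9 CPM in IP (median 31.2) and 46.8 to 176 CPM in input (median 101), a log2 fold change of -1.45 ± 0.05 (adjusted p = 4.15e-34), and it was lower in the IP of 46 of 46 mice. Mouse J09 thus had an IP library above its own input for Slco1a4, Flt1, Tek and Ocln, and the highest IP value of Ly6c1.

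**Figure D2:**
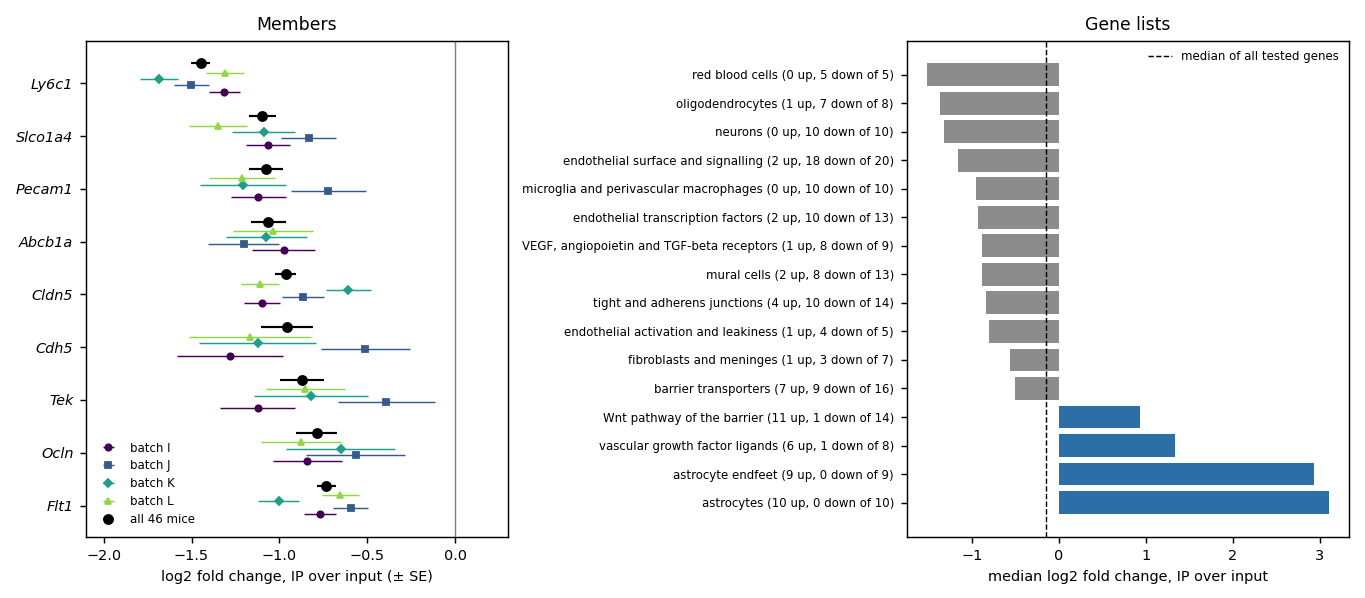
Left, log2 fold change of IP over input with its standard error for the 9 genes, over all 46 mice (black) and within batches I, J, K and L (colours); all points lie below 0. Right, median log2 fold change of each gene list, with the number of tested genes higher and lower in IP; the dashed line is the median of all tested genes (-0.16).

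Lists of related genes, which include the 9 genes, were counted in the same test. Of 20 genes of the endothelial surface, 18 were lower and 2 higher in IP, with a median of -1.16 on the log2 scale, among them the stem cell antigen gene Ly6a (-1.47 ± 0.06), the vascular growth factor gene Egfl7 (-1.44 ± 0.05), Itm2a (-1.18 ± 0.05) and Ly6e (-1.23 ± 0.05). Of 9 genes of VEGF, angiopoietin and TGF-beta receptors, 8 were lower and 1 higher (median -0.88). The ALK1 receptor gene Acvrl1 was at -1.15 ± 0.07, the VEGF receptor 2 gene Kdr at -1.05 ± 0.13 and Ptprb, the phosphatase that counters Tie2, at -0.92 ± 0.08, while the co-receptor gene Nrp1 was higher in IP (0.49 ± 0.06). Of 14 mural cell genes, 13 were tested, of which 8 were lower, 2 higher and 3 not called (median -0.88). The pericyte genes Vtn (-1.29 ± 0.04) and Rgs5 (-1.37 ± 0.07) were lower, whereas Pdgfrb (1.87 ± 0.07) and Notch3 (1.46 ± 0.06) were higher.

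Some other genes of the barrier were higher in IP. Of 14 junction genes, 10 were lower and 4 higher, and the 4 include Jam2 (2.50 ± 0.04) and the scaffold gene Tjp1 (1.21 ± 0.05). Of 16 transporter genes, 9 were lower and 7 higher, among them the lipid carrier gene Mfsd2a (2.54 ± 0.05), the thyroid hormone transporter gene Slco1c1 (2.26 ± 0.04), the amino acid transporter subunit gene Slc3a2 (1.57 ± 0.03) and Slc2a1, the glucose transporter GLUT1 (0.82 ± 0.04). Of 8 ligand genes of vessel growth, 6 were higher, 1 lower and 1 not called (median 1.34), led by apelin, Apln (2.95 ± 0.05), Bmp6 (2.13 ± 0.08) and placental growth factor, Pgf (2.03 ± 0.08). Of 14 genes of Wnt signalling at the barrier, 11 were higher, 1 lower and 2 not called (median 0.93), among them Tspan12 (2.76 ± 0.04) and the ligand genes Ndp (2.71 ± 0.06) and Wnt7b (2.45 ± 0.07). Of 13 endothelial transcription factor genes, 10 were lower, 2 higher and 1 not called (median -0.93); Lmo2 was at -0.93 ± 0.05 and the hypoxia factor gene Epas1 at 2.29 ± 0.05.

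For scale, all 9 endfoot genes (median 2.93) and all 10 astrocyte genes (median 3.11) were higher in IP. Neurons, with 10 of 10 genes lower, had a median of -1.33, oligodendrocytes, with 7 of 8 lower and 1 higher, one of -1.37, microglia and perivascular macrophages, with 10 of 10 lower, one of -0.96, and red blood cells, with 5 of 5 lower, one of -1.52. Of 7 fibroblast genes tested, 3 were lower, 1 higher and 3 not called (median -0.57), and of 5 tested genes of endothelial activation 4 were lower and 1, Vcam1, was higher (2.79 ± 0.05).

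Within each of the 4 larger batches, all 9 log2 fold changes were below 0, between -1.68 (Ly6c1 in batch K) and -0.39 (Tek in batch J). Not called within their batch were Tek in J (adjusted p = 0.239), Ocln in J (0.0864) and K (0.0681) and Cdh5 in J (0.0842), in edgeR. Cldn5 was at -1.10 in batch I, -0.87 in J, -0.61 in K and -1.11 in L, with unadjusted p = 0.0127 for a difference between batches and adjusted p = 0.0642 in edgeR. Ly6c1 was at -1.31, -1.50, -1.68 and -1.31 in the same order (adjusted p = 0.149). None of the 9 genes passed this test, which called 17.6% of all genes. At an unadjusted p under 0.05, Cldn5 and Ly6c1 were the 2 below it.

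The comparison of treatments asked whether these genes differed with ethanol dependence, in IP and in input. How much of their IP level came from astrocytes, and how much was carried over from other cells, was not tested. Cldn5 was the only one of the 9 genes called: in input it was lower in dependent than in naive mice, by -0.47 ± 0.11 on the log2 scale (SE, adjusted p = 0.0135, edgeR). Its input level was 15.5 to 42.0 CPM in dependent mice (median 22.5), 12.4 to 38.6 CPM in non-dependent mice (median 24.7) and 13.9 to 53.5 CPM in naive mice (median 37.2). The groups overlap, and the naive libraries that lie above all others are all of batch L, where dependent mice were high too. These levels pool the batches, whereas the fit holds a batch term. In this comparison 0.965% of all genes were called lower in dependent mice. In IP the difference was close in size, with 5.49 to 19.3 CPM in dependent mice (median 10.3), 6.08 to 16.4 CPM in non-dependent mice (median 10.6) and 7.09 to 25.5 CPM in naive mice (median 16.6), but at -0.48 ± 0.15 it did not pass (adjusted p = 0.0622 in edgeR, with 4.67% of all genes called). The difference between the fractions was -0.01 ± 0.15 (adjusted p = 1, edgeR).

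Within batches, naive input libraries had the higher mean of Cldn5 each time. In batch J the means were 20.5 CPM in 4 dependent and 30.1 CPM in 4 naive mice, a log2 difference of -0.45. In batch K they were 21.98 CPM in 2 dependent and 28.97 CPM in 4 naive mice (-0.36), and in batch L 33.9 CPM in 3 dependent and 44.2 CPM in 8 naive mice (-0.38). The groups overlapped in all 3 batches. These means hold no term for sex, and both dependent mice of batch K were male, against 2 female and 2 male naive mice. In IP the log2 differences in the same 3 batches were -0.15, -0.46 and -0.30, and in batch K the 2 dependent libraries were below all 4 naive ones. Flt1 in IP and Cdh5 in input separated likewise in batch K. Ocln in IP of batch L lay the other way, with all dependent libraries above all naive ones. How many of all genes separate in this way was not counted. Mice J02 and J04 of batch J had low Cldn5 in both fractions: naive mouse J02 with 7.09 CPM in IP and 13.9 CPM in input, and non-dependent mouse J04 with 6.08 CPM in IP and 12.4 CPM in input. Leaving out each of the 47 mice in turn, with limma voom, kept the input call every time, with log2 differences between -0.54 and -0.43 and adjusted p between 0.00215 and 0.0335. In IP the same procedure over 44 mice gave adjusted p between 0.0182 (without naive J02) and 0.150 (without dependent L25), against 0.0564 with all mice.

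The input call of Cldn5 depended on the batches and on a term for cell composition. It was lost without batch J (adjusted p = 0.0614), without K (0.0823), without L (0.155) and with J and K alone (0.400), while the log2 difference stayed between -0.49 and -0.44, in edgeR each time. With a covariate for the balance of astrocyte against neuron and oligodendrocyte transcripts it was -0.36 (adjusted p = 0.197 in edgeR), and with one for mural cell transcripts -0.44 (adjusted p = 0.0216). In input, none of 10 neuron, 8 oligodendrocyte or 12 tested mural cell genes was called between dependent and naive mice, but Gfap of 10 astrocyte genes (1.03 ± 0.19) and Gjb6 of 9 endfoot genes (0.76 ± 0.13) were, both higher in dependent mice. The summed mural cell level in input was 104 to 182 CPM in dependent mice and 107 to 190 CPM in naive mice. Naive mice stood apart in 1 red blood cell gene. Hba-a2, an alpha-globin gene with the near copy Hba-a1, had at most 0.713 CPM in dependent and 0.590 CPM in non-dependent input libraries, against 17.7 to 73.3 CPM in 14 naive ones. The 2 other naive mice, K14 and L23, had at most 0.408 CPM. Without those 2 mice Cldn5 was at -0.49 ± 0.12 (adjusted p = 0.0153, edgeR). Of the 5 red blood cell genes Hba-a2 was the only one called in input, and the summed level of the 5 overlapped between treatments, at 70.1 to 2351 CPM in dependent mice and 214 to 1019 CPM in naive mice. What sets those 14 naive mice apart from K14, L23 and all other mice is not given in the labels and was not tested, and it bears on every value of dependent or non-dependent against naive mice.

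**Figure D3:**
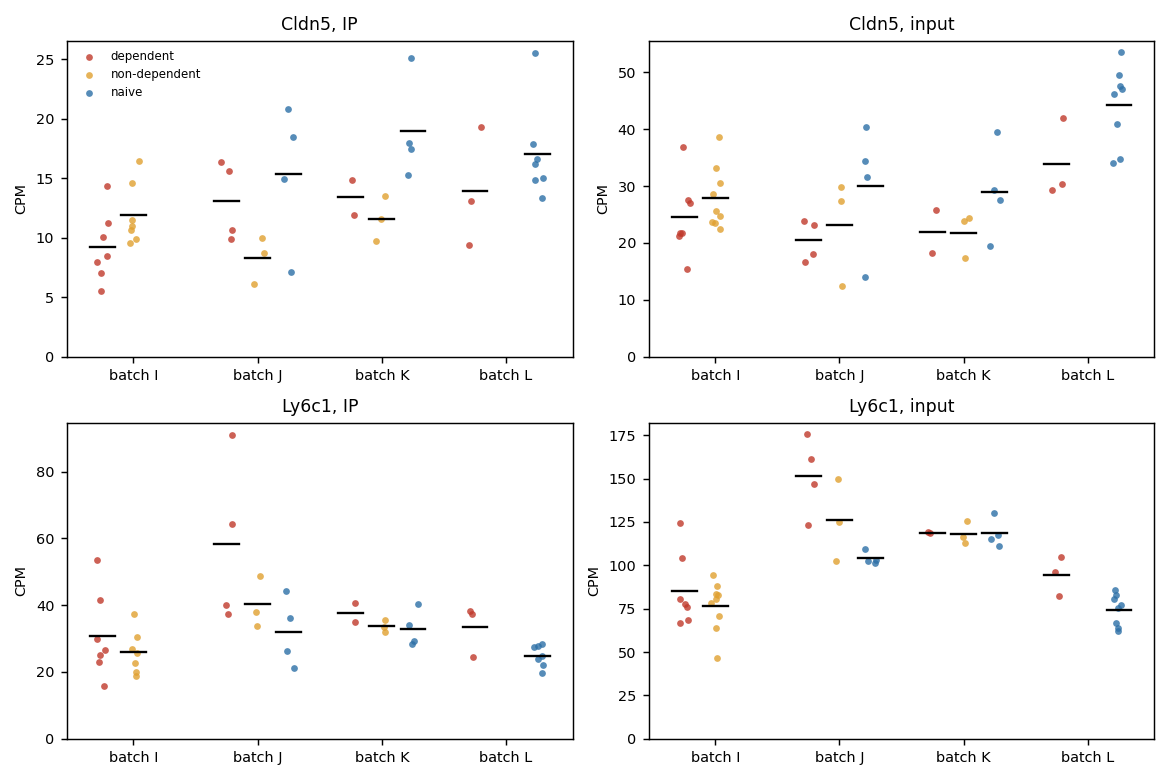
CPM of Cldn5 (top) and Ly6c1 (bottom) in IP (left) and input (right) by batch, with dependent, non-dependent and naive mice from left to right in each batch where they occur (points are libraries, bars are means, axes start at 0). For Cldn5 the naive mean is the highest in batches J, K and L, and for Ly6c1 the dependent mean is above the naive one in J and L, while in K the input means are 118.7 CPM in dependent and 118.6 CPM in naive mice.

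Ly6c1 lay in the opposite direction to Cldn5 and was not called. Its IP level was 15.7 to 90.9 CPM in dependent mice (median 37.9), 18.8 to 48.9 CPM in non-dependent mice (median 31.9) and 19.6 to 44.1 CPM in naive mice (median 27.7). The difference between dependent and naive mice was 0.47 ± 0.14 in IP (adjusted p = 0.0515, edgeR) and 0.30 ± 0.10 in input (adjusted p = 0.0874, edgeR). Input levels were 66.7 to 176 CPM in dependent mice (median 112), 46.8 to 150 CPM in non-dependent mice (median 88.1) and 62.4 to 130 CPM in naive mice (median 93.3). The batches differed in this: in input the log2 difference was 0.53 in batch J, where all 4 dependent libraries were above all 4 naive ones, 0.00 in K and 0.34 in L. The share of all genes that separate so in J was not counted. In IP the differences in J, K and L were 0.80, 0.20 and 0.39. Mouse J09 weighed on the IP value, whose adjusted p in limma voom was 0.0516 with all mice and 0.1202 without J09, the highest of the 44 fits. The lowest was 0.0304, without dependent mouse I15, and 11 of the 44 fits called the gene. The log2 difference stayed between 0.39 and 0.52. The Ly6 genes Ly6a and Ly6e, of which Ly6a shares stretches of transcript with Ly6c1, were called higher in IP of dependent than of non-dependent mice (0.72 ± 0.17 and 0.72 ± 0.18, edgeR), whereas Ly6c1 was at 0.34 ± 0.14 in that comparison (adjusted p = 0.273). The calls of Ly6a and Ly6e were lost without batch I, with J and K alone and with no batch term, and that of Ly6e also without batch J and with either covariate. In the same comparison, 3 of 10 genes of microglia and perivascular macrophages were higher in IP of dependent mice (median 0.39 over the 10). They were the complement genes C1qa (0.75 ± 0.17), C1qb (0.69 ± 0.18) and C1qc (0.83 ± 0.19). These 3 calls too were lost without batch I, with J and K alone and with no batch term. That of C1qb was also lost with limma voom, without K, without L and with either covariate. The part of these genes in the Ly6 values was not tested.

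The other 7 genes gave no call between dependent and naive mice. Slco1a4 had 4.27 to 23.2 CPM in IP of dependent mice (median 8.03), 5.92 to 13.03 CPM in non-dependent mice (median 9.23) and 4.06 to 9.07 CPM in naive mice (median 5.55). Its difference between dependent and naive mice was 0.50 ± 0.19 in IP (adjusted p = 0.132) and 0.22 ± 0.13 in input (adjusted p = 0.489, edgeR). Flt1 was at -0.23 ± 0.14 in IP and -0.20 ± 0.09 in input, with input medians of 29.998 CPM in dependent, 31.1 CPM in non-dependent and 36.3 CPM in naive mice. Ocln was at 0.33 ± 0.33 in IP and 0.35 ± 0.22 in input, Cdh5 at -0.46 ± 0.43 and -0.24 ± 0.21, and Pecam1 at 0.11 ± 0.26 and -0.19 ± 0.16. Abcb1a was at -0.08 ± 0.26 in IP and 0.27 ± 0.14 in input, and Tek at -0.12 ± 0.33 and -0.14 ± 0.18. The standard errors of the 5 low genes, Ocln, Cdh5, Pecam1, Abcb1a and Tek, ran from 0.26 to 0.43 in IP, against 0.15 for Cldn5.

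**Figure D4:**
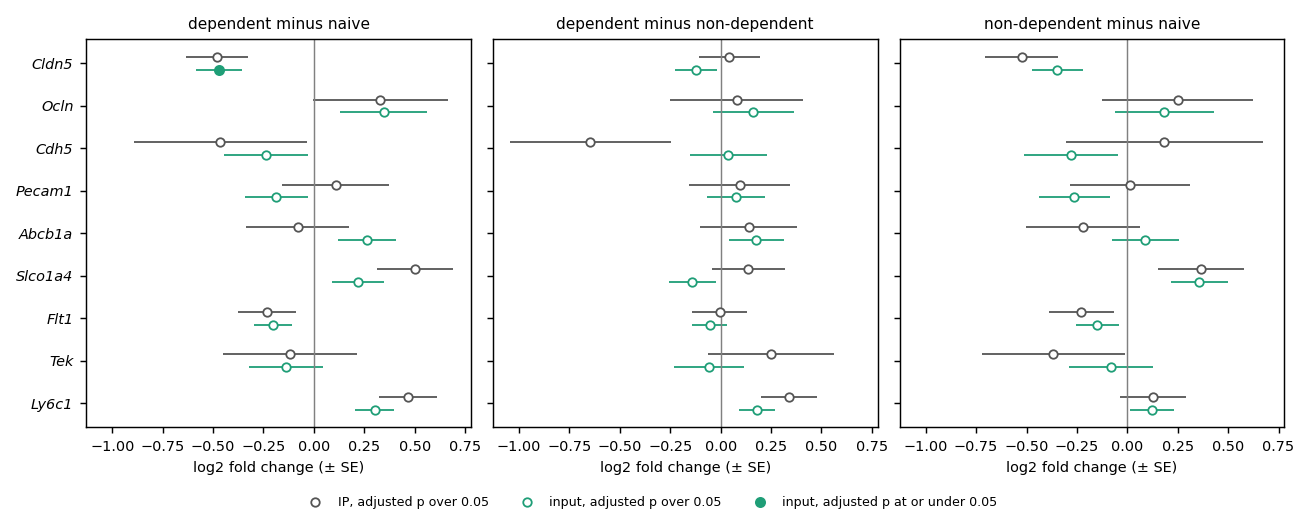
Log2 differences with standard errors for the 9 genes in IP (grey, upper point) and input (green, lower point) for each pair of treatments; filled points have an adjusted p at or under 0.05. The only filled point is Cldn5 in input between dependent and naive mice, at -0.47.

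Between dependent and non-dependent mice, and between non-dependent and naive mice, none of the 9 genes was called in either fraction. The background in edgeR was 1.54% of genes in IP and 0.355% in input for dependent against non-dependent mice, and 0.44% in IP and 0.122% in input for non-dependent against naive mice. Unadjusted p-values under 0.05 were found for Ly6c1 in IP and input in the first comparison, and for Cldn5 in IP and for Cldn5 and Slco1a4 in input in the second. Cldn5 in non-dependent against naive mice was at -0.52 ± 0.18 in IP (adjusted p = 0.224) and -0.35 ± 0.13 in input (adjusted p = 0.430), and in dependent against non-dependent mice at 0.04 ± 0.15 and -0.12 ± 0.10, in edgeR. These comparisons share their naive or non-dependent libraries, and the one of non-dependent with naive mice draws directly on batches J and K, where both groups occur. Slco1a4 in non-dependent against naive mice was at 0.37 ± 0.21 in IP and 0.36 ± 0.14 in input (adjusted p = 0.592 and 0.527, edgeR). In the input of batch J it averaged 21.8 CPM in non-dependent mice and 14.4 CPM in naive mice.

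None of the 9 genes differed between the sexes at the threshold, where 0.0501% of genes were called in IP and 0.0508% in input. Cdh5 in input was at 0.38 ± 0.15 for female minus male (adjusted p = 0.856), Cldn5 in input at 0.19 ± 0.08 (0.930), Ly6c1 in input at 0.15 ± 0.07 (0.974) and Abcb1a in IP at 0.47 ± 0.19 (0.845), and these 4 had unadjusted p under 0.05 in edgeR. Whether the difference between dependent and naive mice itself differed between the sexes was tested as well, and 0.0% of genes were called in IP and 0.0% in input by edgeR, with 627 genes in IP and 540 in input at an unadjusted p under 0.05. DESeq2 called 14 genes in IP and 0 in input for this, none of them among the 9, and limma voom called 0 in both. Cldn5 in IP was the single member below that level: females averaged 10.3 ± 2.74 CPM in 10 dependent and 19.2 ± 4.22 CPM in 8 naive mice, and males 12.7 ± 4.26 CPM in 8 dependent and 14.6 ± 3.67 CPM in 7 naive mice (difference of differences -0.62 ± 0.28, adjusted p = 1, edgeR).

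Treatment differences were also compared between IP and input of the same mice. None of the 9 genes was called, against 0.356% of genes for dependent minus naive, 0.0923% for dependent minus non-dependent and 0.0% for non-dependent minus naive mice. The 9 values for dependent minus naive ran from -0.34 ± 0.28 (Abcb1a) to 0.26 ± 0.21 (Slco1a4), and no member had an unadjusted p under 0.05 in any of the 3 tests. In the last test 1199 genes had an unadjusted p under 0.05 in edgeR, and limma voom called none either.

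Around the 9 genes, a few other transporter genes of the barrier were higher in dependent than in naive mice. Of 16 transporter genes, 3 were called higher, 0 lower and 13 not called in IP (median 0.18), and 2 were higher in input (median 0.12). Over all genes, 561 of 19979 were higher in IP and 279 of 19691 in input, with medians of 0.00 in both fractions. Slc2a1, the GLUT1 gene, averaged 75.6 ± 20.3 CPM in IP of dependent mice, 65.9 ± 10.8 CPM in non-dependent mice and 45.9 ± 7.15 CPM in naive mice (SD, n = 18, 13 and 15), a difference of 0.57 ± 0.07 for dependent minus naive. In input it averaged 50.7 ± 15.9, 40.8 ± 11.1 and 30.3 ± 9.67 CPM in the same order (SD, n = 18, 15 and 16), a difference of 0.63 ± 0.08. Mfsd2a, the lysophospholipid carrier gene, was at 0.88 ± 0.12 in IP and 0.78 ± 0.16 in input, and Slc7a5, the large neutral amino acid transporter gene, at 0.44 ± 0.10 in IP. Both Slc2a1 and Mfsd2a were also higher in IP than in input, unlike the 9 genes. Which cells their RNA came from was not tested. Slc2a1 in both fractions and Mfsd2a in IP kept their calls under every alternative tried for dependent against naive mice. Not every other call held under every alternative. Of 19 list genes called between dependent and naive mice in IP, 6 remained called with batches J and K alone and 16 with the composition covariate. Of 10 in input, 2 remained called with batches J and K alone and 4 with the composition covariate, where Angpt1, Apcdd1, Epas1, Plvap, Gjb6 and Gfap were lost. That covariate averages the astrocyte, neuron and oligodendrocyte lists, which hold Gfap itself, so its loss was partly built in. Of Ndp, Fgfr3 and Cnp, lost with it in IP, the last 2 are in those lists too.

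Of the 14 junction genes, Cldn5 was the only one called between dependent and naive mice, in input. The next by p in input were F11r, which encodes JAM-A (0.39 ± 0.16, adjusted p = 0.213), and Cgnl1 (0.33 ± 0.18, adjusted p = 0.429), and in IP Jam2 (-0.22 ± 0.08) and Tjp1 (-0.25 ± 0.09) had adjusted p of 0.0841 and 0.105. None of the 9 VEGF, angiopoietin and TGF-beta receptor genes was called in either fraction. Of the 8 ligand genes, angiopoietin 1, Angpt1, was higher in dependent mice in IP (1.59 ± 0.26) and in input (1.60 ± 0.46), and in IP Vegfa (-0.40 ± 0.10) and Apln (-0.45 ± 0.13) were lower. The input call of Angpt1 (adjusted p = 0.0483, edgeR) was lost with limma voom, with no count filter, with either covariate, without any 1 of batches I to L, with J and K alone, and without K14 and L23. Of the 14 Wnt genes, Wnt7b (0.34 ± 0.09) and Ndp (0.38 ± 0.10) were higher in IP and the Wnt target gene Apcdd1 (0.55 ± 0.15) in input. Of 20 surface genes, Tm4sf1 (0.74 ± 0.20) was higher in IP and von Willebrand factor, Vwf (0.75 ± 0.17), in input, and of 13 transcription factor genes Epas1 (0.40 ± 0.10) was higher in input. Among genes of activation and leakiness, Plvap, the fenestral diaphragm gene, was higher in dependent mice in IP (0.29 ± 0.08) and input (0.45 ± 0.11), while Vcam1 (-0.40 ± 0.09) and Ackr1 (-0.44 ± 0.13) were lower in IP. With no count filter Plvap and Ackr1 were not called in IP. Both were also lost there with J and K alone, without J, without K and without L. Plvap in IP was lost without I and with no batch term too. In input its call was lost with no batch term, with J and K alone, without I, without J and with the composition covariate. Of the mural cell genes 1 was called, Pdgfrb, lower in dependent mice in IP (-0.52 ± 0.11). Of the fibroblast genes 1 was called, Col1a2, higher in dependent mice in IP (0.97 ± 0.17). The IP calls of Vegfa, Apln, Wnt7b, Ndp, Tm4sf1 and Vcam1 were lost with J and K alone and without K. All of these but Apln were lost without L, and Vegfa, Apln, Ndp and Vcam1 without J. With no batch term Vegfa, Ndp and Tm4sf1 were lost, and Apln without I. The call of Pdgfrb was lost with J and K alone and without L. In input Apcdd1, Vwf and Epas1 were lost with J and K alone, without J, without K and without L. Apcdd1 was lost there with no batch term too. In the comparison of IP with input above, Pdgfrb, Vcam1, Apln, Ndp, Wnt7b and Epas1 were higher in IP, as were Slc2a1 and Mfsd2a. Which cells their RNA came from, in IP or in input, was not tested. Between dependent and non-dependent mice Slc2a1 was higher in input (0.38 ± 0.08) and Slc3a2 in IP (0.23 ± 0.06), Apln was lower in IP (-0.66 ± 0.13) and input (-0.69 ± 0.16), and Bmp6 was lower in IP (-1.01 ± 0.18). None of these calls held without batch I or with J and K alone. Between non-dependent and naive mice Slc2a1 (0.35 ± 0.08) and Mfsd2a (0.57 ± 0.14) were higher and Vegfa (-0.50 ± 0.11) was lower in IP. All 3 calls were lost without batch J, without K, without L and with J and K alone. Those of Slc2a1 and Mfsd2a were also lost with limma voom and without naive mouse K14. The call of Slc2a1 was lost too with no count filter, and that of Mfsd2a with the mural cell covariate. That of Vegfa was also lost without batch I and with no batch term.

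The last comparison set the level of a gene in the IP of a mouse beside that in its input, over the 44 mice of batches I to L that have both, after treatment, sex and batch means were subtracted from log2 CPM. For Cldn5 the 2 were correlated (Pearson r = 0.49, permutation p = 0.00376 with mice shuffled within batches, adjusted p = 0.0338 over the 9 genes; Spearman rho = 0.30, permutation p = 0.0658, adjusted p = 0.148). Without J02 and J04, the mice farthest from the middle in input, r was 0.33 and did not pass (permutation p = 0.0637). Within batches, r was 0.52 in I and 0.53 in K, which hold neither of these 2 mice, 0.65 in J and -0.10 in L. For Flt1 r was 0.39 (permutation p = 0.0107, adjusted p = 0.0482; rho = 0.37, permutation p = 0.0173, adjusted p = 0.144), and 0.45 without J09 and K16 (permutation p = 0.00366), with 0.60, 0.41, 0.30 and 0.15 in batches I, J, K and L. For Ly6c1 r was 0.40 (permutation p = 0.0182, adjusted p = 0.0545; rho = 0.35, permutation p = 0.0319, adjusted p = 0.144) and 0.37 without I01 and I05 (permutation p = 0.027), with 0.72 in batch I, 0.03 in J, 0.16 in K and 0.08 in L. For the other 6 genes r lay between -0.16 (Cdh5) and 0.26 (Ocln), with permutation p of 0.0853 or more.

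**Figure D5:**
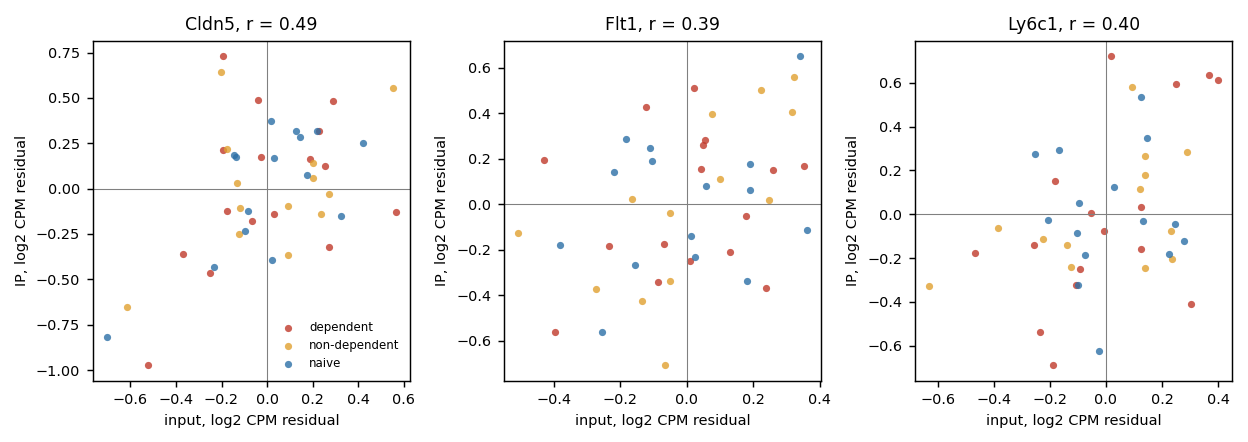
Residual log2 CPM in IP (vertical) against input (horizontal) for Cldn5, Flt1 and Ly6c1, 1 point per mouse, after treatment by sex and batch means were subtracted. In the Cldn5 panel, mice J02, J04 and I15 have the lowest input values and are low in IP too.

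Among themselves the 9 genes moved together only weakly once treatment, sex and batch were subtracted. Over the 36 pairs of genes the median r was 0.17 in IP (44 libraries) and 0.12 in input (47 libraries), 31 and 25 pairs were positive, and the highest were Abcb1a with Flt1 in IP (0.48) and Cdh5 with Ly6c1 in input (0.56). Cldn5 and Ly6c1 had r = 0.46 in IP and 0.01 in input. Against the mean of the other 8, Flt1 had the highest r in both fractions (0.52 in IP, 0.46 in input). All genes of a library share its depth and composition, and these values are given with no test. Among the 8 other genes most like the mean of the 9 in each fraction were, in IP, Stx3 (r = 0.69), Mapkbp1 (0.66), Gspt2 (0.62), Cavin1 (0.62), Fermt3, Thap4, Rtl1 and Aarsd1 (0.57) of 15115 genes, and in input Dcaf17 (0.61), Gm10766 (0.60), Daam1 (0.59), 2300009A05Rik, Dynlt1c, Naa16 and Gm47017 (0.59) of 15733 genes. None of the genes just named was in any of the lists of vessel genes.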

How the data were processed

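RNA of 95 libraries from mouse nucleus accumbens was sequenced after TRAP (IP) or before it (input), from Takara SMART-Seq PLUS libraries per the labels' protocols. Reads were handled with Trimmomatic 0.39, STAR 2.7.10b and FastQC 0.11.9 on the GRCm38 build, per the submitters' processing notes; which program counted them, on which annotation and strand, is not given in the sources used here. The authors deposited raw counts per Ensembl gene. Members and gene lists were chosen with earlier results of these data known, and lists and tests draw on an earlier treatment of the same files, so they are no independent support.

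Genes were filtered with filterByExpr (minimum count 10, minimum total 15), scaled by TMM and tested in edgeR 4.0.16 (quasi-likelihood F test) in R 4.3.3, with Benjamini-Hochberg adjustment over all genes tested and a threshold of 0.05. Treatment by sex and batch were terms in the fits of each fraction, which used batches I to L (44 IP and 47 input libraries), and contrasts averaged over sex. IP was compared with input with the mouse as a block, the pairing coming from the labels, in which both libraries of a mouse carry its name. The mouse is the replicate. The standard error is the log2 fold change divided by the root of F. CPM are counts scaled to a common library total; within-batch differences use log2(CPM + 1), and residuals log2 CPM with a prior count of 2. Fits were tested on simulated data. Alternatives used DESeq2 1.42.0, limma 3.58.1, RLE size factors, no count filter, other sets of batches or mice, and covariates. Python 3.11.15, numpy 2.4.6, scipy 1.17.1 and matplotlib 3.10.9 were used. Named were all 9 genes in every comparison, near copies, up to 4 other genes of each list with the smallest p, and the 8 genes most like the mean of the 9. Some genes that this rule names are not reported here.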

Additional observations from a re-analysis of the deposited data

Results flagged for a closer look

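Within each treatment, sex and fraction, 108 groups of 4 to 10 libraries were searched for a library far from the others of its group. In 10 of them the lowest or highest library stood apart by Dixon's criterion, which chance alone meets in about 1 in 20 groups. The groups pool the batches, which this rate does not take into account. Non-dependent female J04 accounts for 3 of the 10, all in IP: Abcb1a at 8.52 CPM (next library 4.65), Cdh5 at 5.31 CPM (next 2.69) and Flt1 at 27.9 CPM (next 17.9). It was the only batch J library of its group, so mouse and batch cannot be told apart there. Over both sexes, non-dependent IP means in J, I and K were 5.59, 2.96 and 2.91 CPM for Abcb1a. They were 4.16, 1.13 and 1.63 CPM for Cdh5 and 25.9, 14.1 and 15.7 CPM for Flt1, which reached 32.4 CPM in J. The same mouse had the lowest Cldn5 of its group in both fractions.

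The others were single libraries. Dependent female J09 had 90.9 CPM of Ly6c1 in IP (next 53.5). Naive male J02 had 7.09 CPM of Cldn5 in IP (next 13.3), and naive male K19 had 40.3 CPM of Ly6c1 in IP (next 28.5). Dependent male I07 had 15.2 CPM of Slco1a4 in IP (next 9.33). In input, Ocln was at 12.02 CPM in dependent female I05 (next 5.21) and at 8.81 CPM in dependent male L26 (next 4.67), and Tek was at 2.56 CPM in non-dependent male J03 (next 5.41). What sets these libraries apart was not tested.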

How the results depend on the processing

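The 9 genes were called lower in IP than in input under all 11 alternatives, with log2 fold changes between -1.53 and -0.65. Between treatments the counts of called members were small and moved; the cause was not tested. For dependent against naive mice in IP the count was 0, and 2 with DESeq2 and with no count filter (Cldn5 and Ly6c1), 1 with no batch term (Cldn5), and 1 without batch I, with the composition covariate and with the mural cell covariate (Ly6c1 each time). In input the count was 1, and 2 with no count filter and without batch I (Cldn5 and Ly6c1), but 0 with batches J and K alone, without batch J, without batch L and with the composition covariate; without batch K it was 1, with Ly6c1 (0.43, adjusted p = 0.0438, edgeR) in place of Cldn5. For dependent against non-dependent mice in IP it was 0, and 1 with no count filter (Ly6c1). For non-dependent against naive mice it was 0, and 1 with no batch term in IP and in input, and 1 without batch I in IP (Cldn5 each time). No alternative reversed a called member. Leaving out the naive mice with low Hba-a2, and each mouse in turn, were chosen after seeing the data. Without the replicate block, the 9 genes were still called lower in IP and 0 members were called in the tests of treatment between IP and input, where the counts of all genes were 17, 0 and 0, against 77, 20 and 0 with it.

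Counts over all genes depended on the batches and the filter. For dependent against naive mice they were 933 in IP (235 to 1447) and 469 in input (17 to 707), for dependent against non-dependent mice 308 (0 to 684) and 70 (0 to 119), and for non-dependent against naive mice 88 (15 to 481) and 24 (8 to 77). For sex they were 10 in IP (6 to 96) and 10 in input (7 to 25), and for its interaction with treatment 0 in IP (0 to 38) and 0 in input (0 to 1). Depth limits Cdh5 and Ocln most, with medians of 27.5 and 36 counts per IP library.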
